A study of Mus musculus with 6 samples.

Results

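The 10 genes described here encode matrix metalloproteases (Mmp2, Mmp9, Mmp14, Mmp15 and Mmp16), their protein inhibitors (Timp1, Timp2 and Timp3) and the activators of plasminogen (Plat and Plau). They were taken by symbol from a table of 51912 genes, in which each of the 10 symbols stood on 1 row. The RNA came from B16F10, a melanin-producing melanoma line of the mouse that forms lung metastases after injection into the tail vein, and was sequenced as 6 libraries. The libraries were 3 of A10KO (replicates 1, 13 and 14), labelled ANXA10-/-, and 3 of WT (replicates 1, 2 and 3), labelled wild type. No treatment or time is given for either group, and the labels do not say how the knockout was made or what the replicate numbers count, be it clones, cultures or preparations. A p-value here therefore speaks of library-to-library spread alone, and that spread may be technical.

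Matrix metalloproteases are zinc enzymes that cut collagens, laminins and other proteins of the extracellular matrix. Most are made as inactive precursors. Mmp14 is anchored in the cell membrane and, with Timp2 as a bridge, captures the precursor of Mmp2 at the cell surface, where a free Mmp14 molecule activates it. Plat and Plau, the tissue-type and urokinase-type activators, cut plasminogen into plasmin, a broad protease that also activates some of the metalloprotease precursors. In melanoma these enzymes are studied for their part in invasion through the basement membrane.

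Among these genes B16F10 cells made chiefly transcripts of Mmp14 and Timp2 in both groups, with little Mmp2 and Plau, almost no Mmp9 and no Mmp16 listed. In A10KO the 3 inhibitors and both activators averaged lower than in WT, and Mmp14 differed by less than the spread between libraries. None of these differences passed the test across all genes, which Plau, at its low level, did not enter. Values are TPM, a unit of transcript abundance scaled by transcript length and library total. The A10KO minus WT differences were taken as log2(TPM + 1), so that fold changes of genes at low levels come out too small. In these bulk samples a smaller share of cells with a transcript and less of it per cell cannot be told apart.

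The libraries stood apart in their mitochondrially encoded transcripts, whose share of the TPM sum was 7.93%, 14.7% and 7.37% in A10KO replicates 1, 13 and 14, against 6.56%, 6.48% and 6.32% in WT replicates 1, 2 and 3. Of these transcripts mt-Atp8 was the highest gene of every library, at 32967, 74021 and 33595 TPM in A10KO replicates 1, 13 and 14. In WT replicates 1, 2 and 3 it stood at 27693, 27760 and 26556 TPM. By contrast, mt-Atp6 was listed at 0 in all 6 libraries and mt-Co3 at 0.13 to 0.29 TPM. Anxa10 was listed at 0 TPM in all 6 libraries, WT included, so it gave no check of the labels. Melanocyte markers were present, with 7 of 7 above 1 TPM and Tyrp1, an enzyme of melanin synthesis, at 3319.5 ± 772 TPM in A10KO and 2982 ± 101 TPM in WT (SD, n = 3 each). Of 8 leukocyte, 8 fibroblast and 8 endothelial markers, 2, 3 and 1 reached 1 TPM in any library. The depth of the libraries is unknown, since TPM keeps no record of it.

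The sequences just before the RefSeq start sites of Mmp14, the member with the highest level, of Mmp15, its relative in the membrane-type group at a low level, and of Timp1, the inhibitor with the widest spread in A10KO, are shown for these reasons. RefSeq promoter sequences (GRCm38.p6) were at hand for 5 of the 10 members, these 3 and Timp2 and Timp3. Only bases outside annotated exons are printed, 5′ to 3′ on the strand of the gene, with GC boxes in capitals. The stretches are chr14:54431348-54431597 (+) for Mmp14, chr8:95352046-95352267 (+) for Mmp15 and chrX:20869916-20870165 (+) for Timp1.
Mmp14: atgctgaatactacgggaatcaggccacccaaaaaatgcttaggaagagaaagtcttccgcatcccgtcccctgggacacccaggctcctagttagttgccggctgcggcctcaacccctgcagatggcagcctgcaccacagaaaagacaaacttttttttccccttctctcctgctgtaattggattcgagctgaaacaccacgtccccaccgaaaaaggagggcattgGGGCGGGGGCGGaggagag
Mmp15: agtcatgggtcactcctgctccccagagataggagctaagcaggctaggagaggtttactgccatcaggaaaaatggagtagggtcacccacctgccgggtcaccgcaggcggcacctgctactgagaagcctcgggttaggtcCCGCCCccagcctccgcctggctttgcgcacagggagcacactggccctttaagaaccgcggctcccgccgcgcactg
Timp1: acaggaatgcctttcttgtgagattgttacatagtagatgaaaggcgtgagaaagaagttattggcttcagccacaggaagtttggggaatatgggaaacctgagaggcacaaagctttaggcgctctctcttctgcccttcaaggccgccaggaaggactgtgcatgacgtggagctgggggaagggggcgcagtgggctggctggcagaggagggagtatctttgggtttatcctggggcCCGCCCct
A GC box was searched as GGGCGG on either strand in the 250 bases before the start. It was found in 5 of the 5 windows, against 32.7% of 32851 RefSeq promoter windows of that length. G and C made up 54.4% (Timp1) to 68% (Timp2) of the 5 windows, against a median of 52.4% over all windows. The part of base composition in the matches was not tested. Mmp14 held 2 boxes, beginning 19 and 13 bases before the start and not overlapping, Mmp15 held 1 at 106 bases and Timp1 held 1 at 8 bases, the last pair on the opposite strand. The boxes of Timp2 and Timp3, at 37 and 15 bases, lay in annotated exons and are not printed. The AP-1 motif TGANTCA, the M-box CATGTG and the TATA box TATAAA were in none of the 5 windows, against 6.75%, 12.3% and 12.4% of all windows. A match describes these letters and is not evidence of a bound factor.

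**Figure D1:**
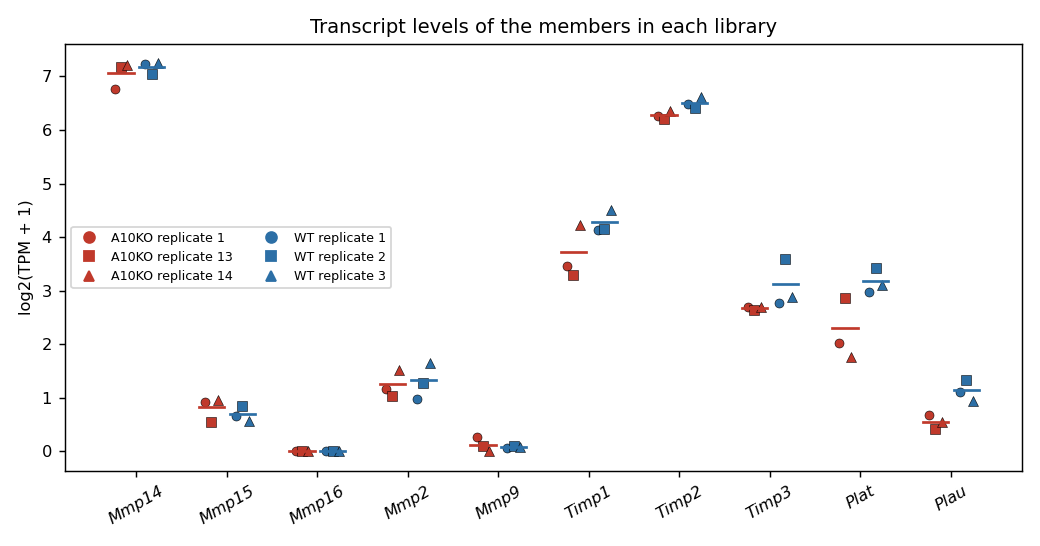
Level of each member in each library, as log2(TPM + 1), with A10KO in red left of WT in blue, 1 symbol per library and a line at the mean TPM of the group. Mmp14 and Timp2 stand above the other members in all 6 libraries, and Mmp16 is listed at 0 in all 6.

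Mmp14 (ENSMUSG00000000957, GRCm38 chromosome 14, 54431612 to 54445364) was the most abundant member. It stood at 108, 143 and 148 TPM in A10KO replicates 1, 13 and 14, against 149.7, 132 and 150.4 TPM in WT replicates 1, 2 and 3. A10KO replicate 1 was the lowest library and the groups overlapped. The means were 133 ± 22.0 TPM in A10KO and 144 ± 10.5 TPM in WT (SD, n = 3 each), a log2 change of -0.13 (SE 0.15, 95% interval -0.48 to 0.23, limma adjusted p = 0.83 over all genes). The change was 0.018 without A10KO replicate 1. Mmp14 made up 97.9% to 98.9% of the summed TPM of the 5 metalloprotease members in A10KO libraries and 98.3% to 98.9% in WT libraries.

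Mmp2 (ENSMUSG00000031740, chromosome 8, 92827291 to 92853420), the gelatinase whose precursor Mmp14 activates, was near the limit of the filter on low values. It stood at 1.23, 1.05 and 1.85 TPM in A10KO replicates 1, 13 and 14, against 0.98, 1.41 and 2.13 TPM in WT replicates 1, 2 and 3. The groups overlapped over most of their range, with a log2 change of -0.066 (SE 0.26, limma adjusted p = 0.956). Its sign changed without A10KO replicate 13 (0.034), without WT replicate 3 (0.11) and under quantile normalization (0.042).

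The remaining metalloprotease members did not enter the test, because they did not reach 1 TPM in 3 libraries. Mmp15 (ENSMUSG00000031790, chromosome 8, 95352268 to 95375080), another membrane-type enzyme, stood at 0.89, 0.47 and 0.95 TPM in A10KO replicates 1, 13 and 14, against 0.58, 0.79 and 0.48 TPM in WT replicates 1, 2 and 3 (exact two-sided permutation p = 0.5). Mmp9 (ENSMUSG00000017737, chromosome 2, 164940780 to 164955850), the second gelatinase, stood at 0.20, 0.07 and 0 TPM in A10KO libraries, against 0.05, 0.07 and 0.06 TPM in WT libraries (exact two-sided permutation p = 0.8). The groups overlapped for each of these genes. Mmp16 (ENSMUSG00000028226, chromosome 4, 17852893 to 18119145), the third membrane-type member, was listed at 0 in all 6 libraries.

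Timp2 (ENSMUSG00000017466, chromosome 11, 118301069 to 118355740) was the most abundant inhibitor. It stood at 75.6, 72.8 and 80.5 TPM in A10KO replicates 1, 13 and 14, against 88.7, 84.5 and 96.8 TPM in WT replicates 1, 2 and 3. Every A10KO library was below every WT library. The means were 76.3 ± 3.88 TPM in A10KO and 90.0 ± 6.27 TPM in WT (SD, n = 3 each), a log2 change of -0.23 (SE 0.11, 95% interval -0.50 to 0.031, limma adjusted p = 0.603). The groups stayed apart when mitochondrial transcripts were removed and the rest rescaled, and overlapped under median-of-ratios scaling, where WT replicate 2 was at 78.4 TPM and A10KO replicate 14 at 81.2, and under trimmed-mean scaling.

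Timp1 (ENSMUSG00000001131, chromosome X, 20870166 to 20874735), a secreted inhibitor that also binds the Mmp9 precursor, stood at 10.01, 8.85 and 17.8 TPM in A10KO replicates 1, 13 and 14, against 16.6, 16.9 and 21.8 TPM in WT replicates 1, 2 and 3. A10KO replicate 14 lay within the WT range and the other A10KO libraries below it. The means were 12.2 ± 4.84 TPM in A10KO and 18.4 ± 2.95 TPM in WT (SD, n = 3 each), a log2 change of -0.60 (SE 0.27, 95% interval -1.22 to 0.014, limma adjusted p = 0.566). The change was -0.89 without A10KO replicate 14.

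Timp3 (ENSMUSG00000020044, chromosome 10, 86300372 to 86349506), which stays bound to the matrix and also inhibits ADAM enzymes, stood at 5.48, 5.24 and 5.45 TPM in A10KO replicates 1, 13 and 14. It stood at 5.82, 11.01 and 6.37 TPM in WT replicates 1, 2 and 3. The groups did not overlap, but the gap between the highest A10KO and the lowest WT library was small and WT replicate 2 stood far above the rest. The log2 change was -0.40 (SE 0.25, 95% interval -0.98 to 0.17, limma adjusted p = 0.685), and -0.15 without WT replicate 2.

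Of the Timp genes, Timp1 and Timp3 lie inside synapsin genes on the opposite strand, which encode proteins of synaptic vesicles. Syn1, around Timp1, stood at 0.02 to 0.07 TPM in A10KO and at 0 to 0.02 TPM in WT. Syn3, around Timp3, stood at 0.37 to 0.63 TPM in A10KO and at 0.55 to 0.71 TPM in WT. Cep295nl lies inside Timp2 on the same strand and stood at 0.10 to 0.98 TPM in A10KO and at 0.30 to 0.75 TPM in WT. The strand setting of the counting is not given in the sources used here. Reads of Timp1 or Timp3 and of the synapsin gene around it therefore cannot be told apart with certainty. For Timp2 and Cep295nl, on the same strand, no strand setting would tell shared bases apart. All of these partners were below 1 TPM in all 6 libraries.

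Plat (ENSMUSG00000031538, chromosome 8, 22757727 to 22782844), tissue-type plasminogen activator, had the largest log2 difference among the 6 tested members. It stood at 3.09, 6.28 and 2.38 TPM in A10KO replicates 1, 13 and 14, against 6.84, 9.77 and 7.60 TPM in WT replicates 1, 2 and 3. Every A10KO library was below every WT library, with A10KO replicate 13 close to WT replicate 1. The means were 3.92 ± 2.08 TPM in A10KO and 8.07 ± 1.52 TPM in WT (SD, n = 3 each), a ratio of 0.485. The log2 change was -0.95 (SE 0.31, 95% interval -1.68 to -0.23, unadjusted p = 0.0169, limma adjusted p = 0.463). With mitochondrial transcripts removed and the rest rescaled, A10KO replicate 13 was at 7.59 TPM and WT replicate 1 at 7.48, so that the groups overlapped, and the log2 change was -0.91. Without A10KO replicate 13, the library with the highest mitochondrial share, it was -1.27.

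Plau (ENSMUSG00000021822, chromosome 14, 20836660 to 20843385), urokinase-type plasminogen activator, was low in both groups. It stood at 0.61, 0.33 and 0.46 TPM in A10KO replicates 1, 13 and 14, against 1.16, 1.52 and 0.92 TPM in WT replicates 1, 2 and 3. Every A10KO library was below every WT library, and the ratio of means was 0.389. Plau reached 1 TPM in 2 libraries and so did not enter the test. The exact two-sided permutation p was 0.1, the smallest that 3 against 3 libraries can give. With no filter on low values the log2 change was -0.58 (SE 0.16, limma adjusted p = 0.586). With 0.5 and 0.1 TPM added in place of 1 it was -0.81 and -1.20.

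**Figure D2:**
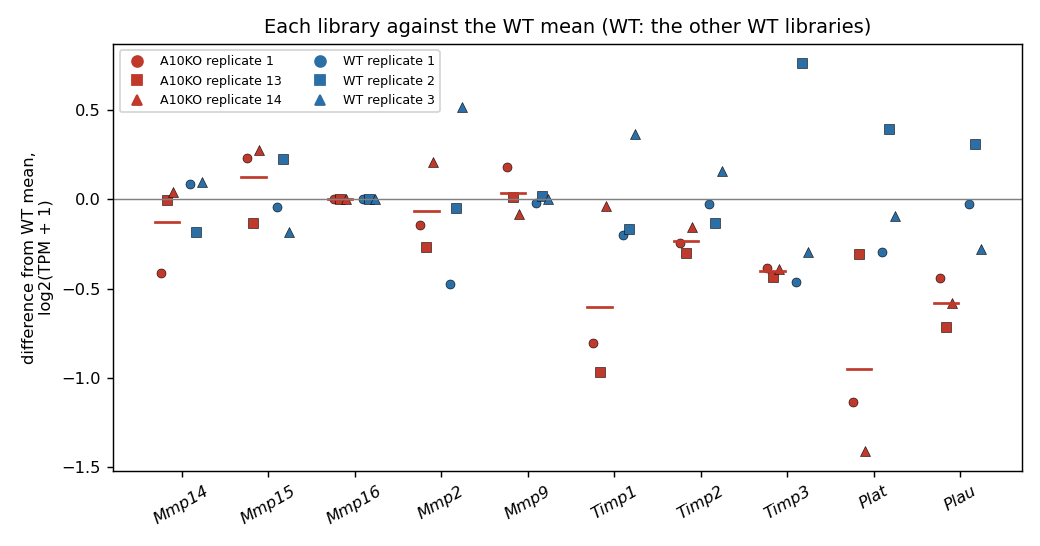
Difference of each library from the WT mean on the log2(TPM + 1) scale, with each WT library set against the mean of the other WT libraries. A10KO (red, line at the mean) is left of WT (blue). The 3 A10KO libraries lie below 0 for each Timp gene, Plat and Plau, with WT libraries also below 0 for each of these genes.

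Of the 6 members tested, 0 were called by limma at an adjusted p under 0.05, where 0.0414% of all 12068 tested genes were called. At an unadjusted p under 0.05, 1 member, Plat, was lower in A10KO, against 6.27% of all tested genes. The groups did not overlap for 3 of the 6, Timp2, Timp3 and Plat, all lower in A10KO, against 11.5% of tested genes that were lower without overlap. For 0 of the 6 they did not overlap in the other direction, against 5.61% of tested genes. These counts are for the values as deposited. Timp2 overlapped under median-of-ratios and trimmed-mean scaling, and Plat with mitochondrial transcripts removed. All 6 log2 changes were below 0, as were those of 6813 of the 12068 genes, and the median was -0.32 over the 6 members and -0.042 over all tested genes. The 6 are the members with the higher levels, and Plau, Mmp15, Mmp9 and Mmp16 are not among them. Fibroblast markers summed to 1.82 to 4.79 TPM in A10KO and 4.48 to 5.53 TPM in WT, and endothelial markers to 0.69 to 6.47 TPM in A10KO and 6 to 9.07 TPM in WT. Most of the endothelial sum was Vwf, a clotting protein gene, at 2.92 ± 2.92 TPM in A10KO and 7.22 ± 1.34 TPM in WT. Whether cells of these types were present at all is not known from these sums. Their part, if any, and that of the mitochondrial share in the lower levels of the Timp genes and activators was not tested. Col1a1, a fibrillar collagen gene of the fibroblast list, stood at 0.62, 1.6 and 0.32 TPM in A10KO replicates 1, 13 and 14, against 1.93, 2.42 and 2.46 TPM in WT replicates 1, 2 and 3, without overlap. Postn, the fibroblast marker with the highest mean, stood at 0.90 to 1.97 TPM in A10KO and 1.03 to 2.35 TPM in WT, which overlapped. Of the 8 fibroblast markers 1 was at 0 in all 6 libraries (Lum), as were 3 of the 8 endothelial markers (Emcn, Cldn5 and Erg).

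**Figure D3:**
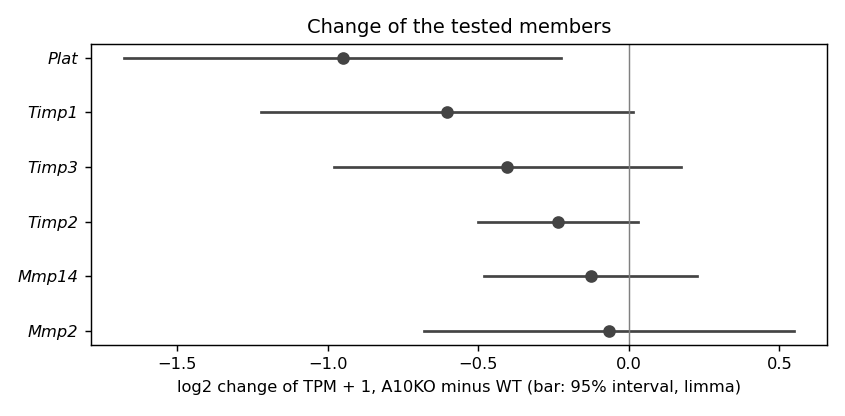
Log2 change, A10KO minus WT on the log2(TPM + 1) scale, of the 6 members that entered the test, with 95% intervals from limma that are not adjusted for the number of genes. The interval of Plat, from -1.68 to -0.23, does not include 0, and those of the other members do.

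The order of the levels was Mmp14, Timp2 and Timp1 from the top in both groups, each above the next in every library of the group. In A10KO, Timp3 and Plat followed at 5.39 ± 0.131 and 3.92 ± 2.08 TPM, with ranges that overlapped. In WT, Plat and Timp3 followed at 8.07 ± 1.52 and 7.73 ± 2.85 TPM, again with overlapping ranges. Below them Mmp2 was apart from Mmp15 in A10KO, Mmp15 overlapped Plau, and Plau was apart from Mmp9. In WT, Mmp2 overlapped Plau, Plau was apart from Mmp15, and Mmp15 was apart from Mmp9. Mmp9 overlapped the zeros of Mmp16 in A10KO and not in WT.

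Ratios between members within a library do not depend on how that library was scaled, apart from the added 1 TPM. The TPM of Mmp14 was 1.42, 1.97 and 1.83 times that of Timp2 in A10KO replicates 1, 13 and 14, against 1.69, 1.56 and 1.55 times in WT replicates 1, 2 and 3. A10KO libraries lay on either side of the WT libraries. The log2 ratio was 0.78 ± 0.25 in A10KO and 0.67 ± 0.066 in WT (SD, n = 3 each), with an exact two-sided permutation p = 0.6. The difference of 0.11 was 0.25 without A10KO replicate 1 and 0.014 without A10KO replicate 13. The TPM of Mmp14 was 121, 305 and 155 times that of Mmp15 in A10KO libraries, against 258, 167 and 313 times in WT libraries, which overlapped.

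The summed Timp members stood at 91.1, 86.9 and 104 TPM in A10KO replicates 1, 13 and 14, against 111, 112 and 125 TPM in WT replicates 1, 2 and 3. Set against the summed metalloprotease members they gave a log2 ratio of -0.51 ± 0.23 in A10KO and -0.33 ± 0.10 in WT (SD, n = 3 each), a difference of -0.18 (exact two-sided permutation p = 0.3). It was -0.072 without A10KO replicate 13 and -0.30 without A10KO replicate 1. A10KO replicate 1 lay within the WT libraries, so the groups overlapped. Timp2 made up 77.6% to 83.8% of the Timp sum in A10KO and 75.2% to 79.9% in WT.

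The log2 ratio of Plat to Plau was 1.67 ± 0.68 in A10KO and 2.04 ± 0.16 in WT (SD, n = 3 each), a difference of -0.37 (exact two-sided permutation p = 0.4). In TPM, Plat was 5.07, 19.0 and 5.17 times Plau in A10KO libraries, against 5.90, 6.43 and 8.26 times in WT libraries. A10KO replicate 13 stood apart from the rest, and the difference was 0.074 with 0.1 TPM added in place of 1. The log2 ratio of Mmp14 to Timp3 was 4.37 ± 0.27 in A10KO and 4.10 ± 0.55 in WT, a difference of 0.28 (exact two-sided permutation p = 0.5, n = 3 each) that was -0.038 without WT replicate 2. Of the 5 ratios tested, 0 differed between the groups, with an adjusted p = 0.6 for each, and no p under 0.1 is possible with 3 against 3 libraries.

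**Figure D4:**
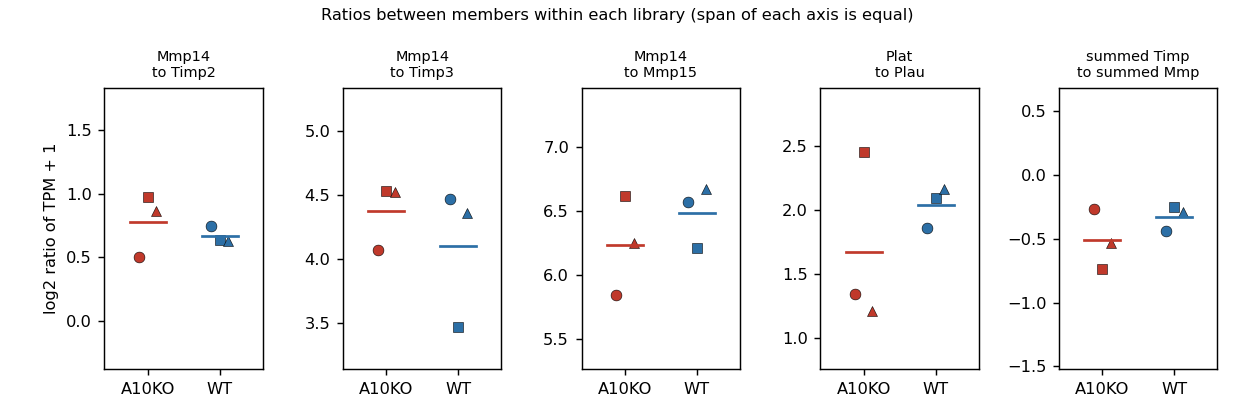
Log2 ratios of TPM + 1 between members within each library, for A10KO (red, left) and WT (blue, right), with a line at the group mean and axes of equal span. The groups overlap in each of the 5 panels, and A10KO libraries are spread more widely than WT libraries in each panel but that of Mmp14 to Timp3.

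Of the other 18 metalloprotease genes of the mouse, 10 were listed at 0 in every library and 1, Mmp11, entered the test. Mmp11 encodes stromelysin-3, which is activated inside the cell by furin. It stood at 8.06, 8.98 and 3.59 TPM in A10KO replicates 1, 13 and 14, against 9.98, 14.7 and 9.20 TPM in WT replicates 1, 2 and 3. Every A10KO library was below every WT library, with a log2 change of -0.70 (SE 0.33, limma adjusted p = 0.59). Mmp23, with the next highest mean, stood at 0.25 to 0.96 TPM in A10KO and 0.33 to 0.64 TPM in WT.

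Among 12 genes for further inhibitors, activators, inducers and uptake receptors of metalloproteases, 7 entered the test and 0 were called, with a median log2 change of -0.13. At an unadjusted p under 0.05, 1 of them, Furin, was lower in A10KO, against 6.27% of all tested genes. Bsg, the membrane protein basigin that induces metalloproteases in neighbouring cells, stood at 880.4 ± 201 TPM in A10KO and 921 ± 146 TPM in WT. Lrp1, a receptor that takes up proteases with their inhibitors, stood at 37.8 ± 17.0 TPM in A10KO and 47.0 ± 11.4 TPM in WT. Furin, a convertase that activates the Mmp14 precursor, was chosen after its values were seen. It stood at 19.3, 15.6 and 18.6 TPM in A10KO replicates 1, 13 and 14, against 22.8, 29.0 and 23.5 TPM in WT replicates 1, 2 and 3. Its groups did not overlap, with a log2 change of -0.47 (SE 0.16, limma adjusted p = 0.484).

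Of 12 genes of the plasminogen system, 5 entered the test and 0 were called. At an unadjusted p under 0.05, 2 were lower in A10KO, Anxa2 and S100a10, against 6.27% of all tested genes. All 5 had log2 changes below 0, as did 6813 of all 12068 tested genes. The median was -0.32 over the 5 and -0.042 over all tested genes. Eno1, a glycolytic enzyme that also binds plasminogen at the cell surface, stood at 2868 ± 663 TPM in A10KO and 3554 ± 498 TPM in WT. Anxa2, which holds plasminogen and tissue-type activator together at the membrane, stood at 219 ± 56.2 TPM in A10KO and 325 ± 52.6 TPM in WT (limma adjusted p = 0.498). The genes in the next sentences were chosen after their values were seen. S100a10, the partner of annexin A2, stood at 93.9, 73.3 and 80.8 TPM in A10KO replicates 1, 13 and 14, against 176, 170.4 and 172 TPM in WT replicates 1, 2 and 3. It had a log2 change of -1.06 (SE 0.12, limma adjusted p = 0.0827) and an adjusted p = 0.0451 without A10KO replicate 1, 0.0491 without A10KO replicate 13 and 0.00904 with array quality weights, with a range of 0.00904 to 0.535 over the 15 alternatives run.

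Plaur, the receptor of urokinase-type activator, stood at 22.0 ± 3.76 TPM in A10KO and 26.1 ± 4.23 TPM in WT, with groups that overlapped. Serpine2, an inhibitor of serine proteases, was at 8.68 TPM in A10KO replicate 13 and at 1.62 TPM in A10KO replicate 14, whereas A10KO replicate 1 was listed at 0 and WT libraries at 0.07 to 0.36 TPM. Plg, the substrate of the activators, stood at 0.17 to 0.52 TPM in A10KO and 0.40 to 0.50 TPM in WT.

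ADAM and ADAMTS enzymes, some of which Timp3 inhibits, gave 8 tested of 15, with 0 called, 0 at an unadjusted p under 0.05 and a median log2 change of -0.12. Adam9, a membrane sheddase, stood at 61.2 ± 22.4 TPM in A10KO and 50.3 ± 8.57 TPM in WT, and Adam15 at 34.7 ± 14.4 TPM in A10KO and 43.9 ± 3.44 TPM in WT. Among 18 matrix proteins that these enzymes cut, 12 entered the test, 0 were called and the median was -0.20. At an unadjusted p under 0.05, 1 was higher in A10KO, Bcan, against 2.56% of all tested genes. At the same threshold 3 were lower, Fn1, Agrn and Lamb2, against 6.27% of all tested genes. Sparc, a collagen-binding protein, stood at 393 ± 38.4 TPM in A10KO and 440.3 ± 20.9 TPM in WT, and Hspg2, the basement membrane proteoglycan perlecan, at 85.2 ± 10.5 TPM in A10KO and 101 ± 10.96 TPM in WT. Agrn, the proteoglycan agrin, chosen after its values were seen, stood at 38.7 ± 13.8 TPM in A10KO and 74.0 ± 9.87 TPM in WT (log2 change -0.97, SE 0.25, limma adjusted p = 0.339). In the marker lists 0 of 7 melanocyte, 2 fibroblast and 1 endothelial genes tested were called, and no leukocyte marker entered the test. At an unadjusted p under 0.05, 1 fibroblast marker, Col1a1 (log2 change -0.88), and the 1 endothelial marker, Vwf (log2 change -1.33), were lower in A10KO. The groups overlapped for Vwf, at 6.20 TPM in A10KO replicate 14 and 5.96 TPM in WT replicate 1. Of all tested genes, 6.27% were lower at that threshold. Postn, the other fibroblast marker tested, had a log2 change of -0.050 (limma adjusted p = 0.969), and 0 melanocyte markers differed. Among untested markers, with means under 1 TPM, Dcn, Col3a1, Kdr and Tie1 averaged higher in A10KO. Col1a2, Pdgfra, Thy1, Pecam1 and Cdh5 averaged lower. Of 10 mitochondrially encoded genes tested 0 were called, 6 were higher in A10KO at an unadjusted p under 0.05, against 2.56% of all tested genes, and the median was 0.64.

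**Figure D5:**
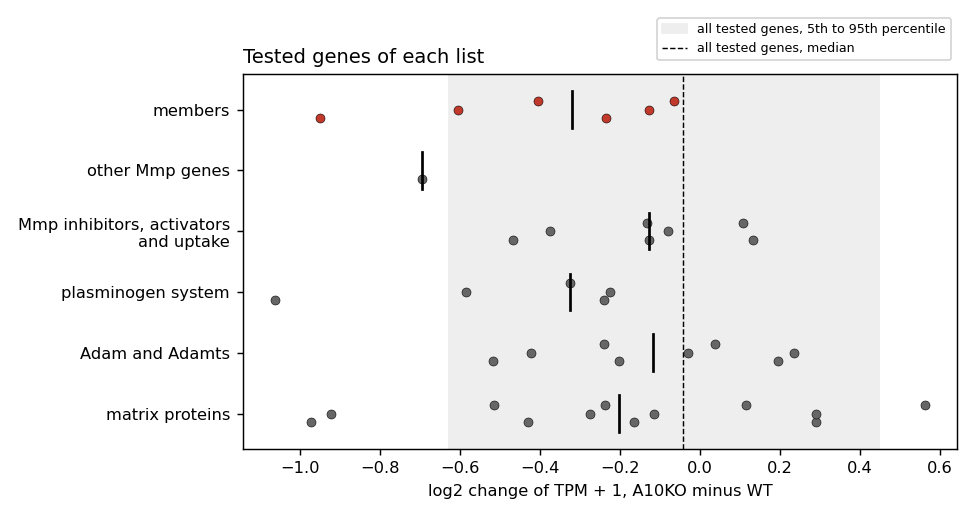
Log2 change, A10KO minus WT on the log2(TPM + 1) scale, of the tested genes of each list, 1 point per gene with a bar at the median. The shaded band holds the 5th to 95th percentile of all tested genes, -0.63 to 0.45, and the dashed line is their median at -0.042. Of the members, Plat at -0.95 lies outside the band.

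The genes whose profiles over the 6 libraries lay nearest to those of the 3 most abundant members were found by Euclidean distance between centred and scaled log2(TPM + 1) values, among 9374 tested genes averaging 5 TPM or more. Nearest to Mmp14 were Rtfdc1, Tada2a and Vcpkmt, at distances of 0.269, 0.302 and 0.313. Nearest to Timp2 were Tcirg1, Tyw1 and Rpl26, at 0.0976, 0.425 and 0.427. Tcirg1, a subunit gene of the vacuolar proton pump, stood at 150.5 ± 12.6 TPM in A10KO and 194 ± 20.5 TPM in WT. Its lower mean in A10KO follows from the choice by nearness to Timp2 and is no separate result. How near the nearest of 9374 genes would lie by chance was not tested. Nearest to Timp1 were Pex16, Rpl35a and Smyd2, at 0.267, 0.355 and 0.400.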

How the data were processed

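RNA sequencing of 3 A10KO and 3 WT libraries was analysed from the deposited series table, with which all 6 deposited library tables were identical. The deposited values are TPM, read from the values themselves (decimals, column sums of 969834 to 985045), although the table is presented as raw counts. The submitters' processing notes name RSEM, HISAT, fastp and the build GRCm38.p5. No source used here gives their versions, settings or strand. Depth is unknown, so no counting interval is given.

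The 12068 genes that reached 1 TPM in 3 or more libraries were tested with limma 3.58.1 in R 4.3.3, with a mean-variance trend, on log2(TPM + 1). P-values were Benjamini-Hochberg adjusted over all tested genes at a threshold of 0.05. Members that did not enter the test, and ratios, had exact two-sided permutation tests. Coordinates are from GENCODE M21 (GRCm38).

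The members and lists were chosen with earlier results of these data known. The rule for naming took all members, and per list the called genes or otherwise the 2 genes with the highest mean. Not all genes that the rule gave for the marker and mitochondrial lists are described. Further genes were chosen after their values were seen, including Bcan, Fn1 and Lamb2, named for an unadjusted p under 0.05. Alternatives were other pseudocounts, filters, scalings and weights, and leaving out each library.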

Additional observations from a re-analysis of the deposited data

How the results depend on the processing

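Over the alternatives run (pseudocounts of 0.1 and 0.5 TPM, no filter, a 5 TPM filter, 3 scalings, removal of mitochondrial transcripts, array quality weights and leaving out each library), 0 members were called in each. The log2 changes of Timp1, Timp2, Timp3, Plat, Plau and Mmp15 kept their sign wherever a value could be had. Those of Plat ran from -1.27 to -0.72, with adjusted p from 0.147 to 0.983, and those of Plau from -1.20 to -0.48. The changes of Mmp2 (-0.22 to 0.11, and 0.042 under quantile normalization), Mmp14 (-0.21 to 0.018) and Mmp9 (-0.035 to 0.096) ran across 0 when single libraries were left out. Over left-out libraries the log2 ratio differences ran from -0.038 to 0.46 for Mmp14 to Timp3, 0.014 to 0.25 for Mmp14 to Timp2, -0.44 to -0.053 for Mmp14 to Mmp15, -0.76 to -0.14 for Plat to Plau and -0.30 to -0.072 for the summed Timp to Mmp members. That of Plat to Plau was 0.074 with 0.1 TPM added. The cause was not tested. The count of called genes was 5, against 4 with no filter, 3 under quantile normalization, 25 with array quality weights and 1 to 20 over left-out libraries (20 when A10KO replicate 13 was left out, 9 for A10KO replicate 1, 5 for A10KO replicate 14, 2 for WT replicate 3, and 1 each for WT replicates 1 and 2). Of the genes in the 5 protease and matrix lists, 1, S100a10, was called with array quality weights and 0 to 1 over left-out libraries. With the 5 TPM filter Mmp2, Mmp9, Mmp15 and Plau had no value, nor had the last 3 under quantile normalization or with array quality weights. No paired analysis was possible because the groups share only replicate number 1. With depth unknown, values under 1 TPM have no stated precision.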
